A study of Mus musculus with 6 samples.

Results

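The galectin genes of the mouse retina were examined 2 days after optic nerve crush (ONC). The 6 genes were Lgals1, Lgals3, Lgals3bp, Lgals4, Lgals8 and Lgals9, which were taken by symbol from the 35485 genes of the tables, and they were chosen by a selection made with their values in ONC and sham retinas already known. Their differences between ONC and sham are therefore given as a description, without a test. Retinas came from wild type male C57BL/6 mice at 12 weeks of age. In the ONC group, which the labels call NC, the optic nerve was exposed and crushed 2 mm behind the eye for 10 s, and in the sham group the nerve was exposed and left uncrushed. Each group held 3 samples, and each sample was RNA from 6 whole retinas pooled before sequencing. The spread between samples is therefore a spread between pools and not between animals. In whole retina, fewer cells of a type and less RNA per cell cannot be told apart.

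Galectins are lectins that bind β-galactoside sugars on glycoproteins and glycolipids, inside the cell and, after secretion by a route that does not use a signal peptide, on the cell surface and in the matrix. Galectin-1, the product of Lgals1, has a single sugar-binding domain and works as a dimer. Galectin-3, the product of Lgals3, joins such a domain to a long flexible tail through which it forms oligomers, and it has long been used as an antigen of macrophages under the name Mac-2. Galectin-4, galectin-8 and galectin-9, the products of Lgals4, Lgals8 and Lgals9, carry a pair of different sugar-binding domains on a single chain. Lgals3bp is not a galectin but encodes a secreted glycoprotein to which galectins bind.

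Exon reads per sample numbered from 17343945 to 18349331 in sham retinas and from 20019818 to 20358008 in ONC retinas. Levels are given as RPKM, which are exon reads scaled to the exon length of the gene and to all reads mapped to genes in the sample, introns included. Exons held 70.9% to 76.6% of the reads on genes in sham retinas and 78.5% to 80.4% in ONC retinas, so that exon reads relative to all gene reads were higher in ONC. With RPKM values the median log2 fold change of all genes tested was 0.13, and with TMM normalization of exon reads, which was used for every log2 fold change below, it was 0.01. The 8 photoreceptor markers that define retina summed to between 20800 and 21600 RPKM in sham retinas and between 22800 and 24300 RPKM in ONC retinas. Of the 8 markers of retinal ganglion cells, 5 were lower in ONC by the criteria given below, beside 0.834% of all genes tested. Slc17a6, also on this list, was higher in ONC, at 22.0 RPKM beside 16.8 RPKM in sham (log2 fold change 0.26). The sum of the 8 markers was 395 to 412 RPKM in sham and 293 to 303 RPKM in ONC.

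A gene was tested when its mean RPKM exceeded 0.3 in ONC or in sham, which left 13670 genes, and all 6 galectin genes passed. Lgals8 had the highest mean level in sham retinas at 10.9 ± 0.514 RPKM (SD, n = 3), followed by Lgals1 at 9.14 ± 2.22, Lgals3bp at 4.31 ± 0.888, Lgals4 at 3.54 ± 0.414, Lgals9 at 1.22 ± 0.350 and Lgals3 at 0.452 ± 0.202. Of the 5 pairs of neighbours in this order, 3 had ranges over samples that did not overlap. The exceptions were Lgals8 with Lgals1 and Lgals3bp with Lgals4. In ONC retinas the order of the mean levels was Lgals8 at 13.3 ± 1.53 RPKM, Lgals1 at 12.0 ± 1.82, Lgals3bp at 4.99 ± 0.469, Lgals4 at 4.21 ± 1.28, Lgals3 at 1.91 ± 0.362 and Lgals9 at 1.15 ± 0.302, with overlap in the same pairs. Lgals3, which had the lowest level of the 6 genes in sham retinas, stood above Lgals9 in ONC retinas, and the ranges of these genes did not overlap in either group. Without ONC replicate 2, all 5 pairs of neighbours in the ONC order were apart. After TMM scaling, ONC replicate 2 had the highest value of the 3 ONC samples for 6 of the 6 genes, whereas sham replicate 1 was highest of the sham samples for Lgals1, Lgals3 and Lgals9.

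**Figure D1:**
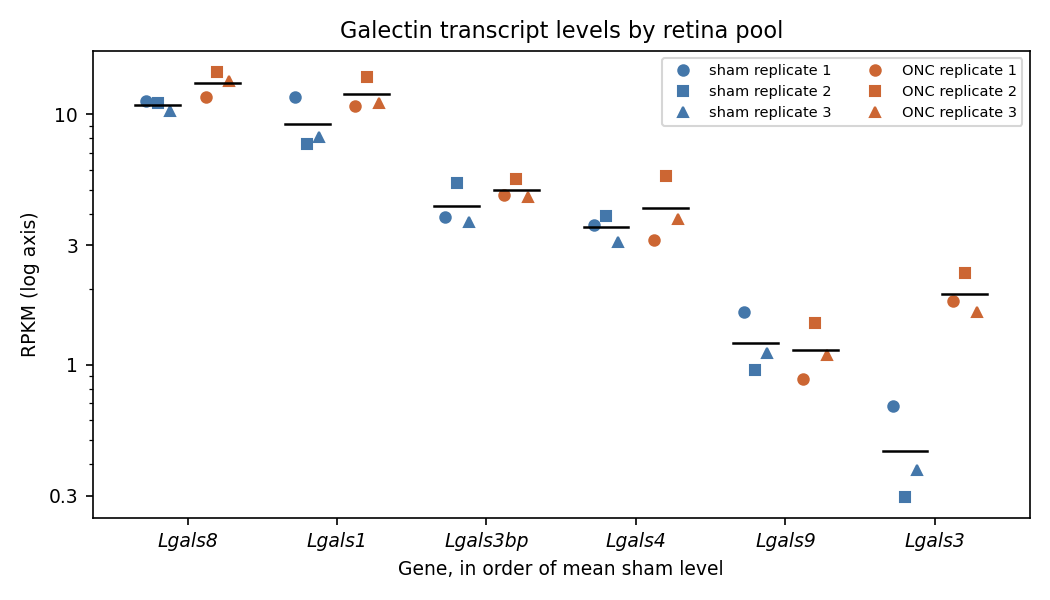
RPKM (log axis) of the 6 galectin genes in each of the 3 sham samples (blue) and 3 ONC samples (orange), with the marker shape giving the replicate number and the black lines the group means. The Lgals3 points lie between 0.297 and 0.681 RPKM in sham and between 1.62 and 2.31 RPKM in ONC, while for Lgals1, Lgals3bp, Lgals4 and Lgals9 the points of the groups overlap.

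Of the 6 genes, Lgals3 differed most between the groups. The gene lies at chr14:47373860-47386167 (GRCm38) and has 7 exons with 1406 bases in all. Its level was 0.681, 0.297 and 0.378 RPKM in sham replicates 1, 2 and 3, and 1.80, 2.31 and 1.62 RPKM in ONC replicates 1, 2 and 3. The lowest ONC sample was thus above the highest sham sample. These levels rest on few reads, namely 22, 10 and 13 exon reads in the sham samples and 64, 81 and 59 in the ONC samples. The ratio of the mean levels was 4.23, and the log2 fold change was 1.96 (SE 0.40, 95% interval 1.12 to 2.79), which is a 3.88-fold difference with an interval from 2.18-fold to 6.90-fold. In the order of log2 fold change, highest first, Lgals3 was at position 51 of 13670 genes. Leaving out sham replicate 1, the sham sample with the highest level, gave a log2 fold change of 2.33, and leaving out sham replicate 2, the lowest, gave 1.71. On a scale of log2(RPKM + 1) in limma the difference was 1.01, since the added constant is larger than the sham level. In ONC retinas Lgals3 remained a gene of low level, because only 21.0% of the genes tested had a lower mean RPKM, compared with 6.54% in sham retinas. Reads on introns numbered 9, 6 and 0 in sham and 14, 12 and 18 in ONC, which was 25.0% of the gene's reads in sham and 17.7% in ONC.

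The 250 bases before the start of Lgals3 are shown because this was the galectin gene with the widest difference between the groups. They were read from RefSeq on GRCm38.p6 at chr14:47373610-47373859, plus strand, and the capitals mark, in order, a match to the CCAAT box and a match to the GC box, both on the opposite strand.
Lgals3: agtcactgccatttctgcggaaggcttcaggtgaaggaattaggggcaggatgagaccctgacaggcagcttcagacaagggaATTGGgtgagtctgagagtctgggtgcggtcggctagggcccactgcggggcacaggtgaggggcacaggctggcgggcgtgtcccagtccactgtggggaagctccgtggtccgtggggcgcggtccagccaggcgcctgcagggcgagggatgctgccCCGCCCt
The CCAAT match began 167 bases and the GC box match 7 bases before the start, and G and C made up 66% of the bases. In the same window of 32851 RefSeq promoters, read on both strands, CCAAT was present in 33.8% and the GC box GGGCGG in 32.7%. The other motifs searched had no match in the Lgals3 window. They were AP-1 (TGANTCA, in 6.75% of promoters), the cyclic AMP response element (TGACGTCA, 1.55%), the composite of ATF4 and C/EBP (TGATGNAA, 3.45%) and the TATA box (TATAAA, 12.4%). The composite had a match 150 bases before the start of Lgals3bp. CCAAT had a match 59 bases before the start used for Lgals4 and matches 230 and 203 bases before that used for Lgals8. For Lgals4 and Lgals8 this is the start of the span in the deposited files, and the full RefSeq gene begins further upstream, so that both windows lie inside it. A match is a run of letters and not a measured binding site.

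The summed markers of microglia and of macrophages, cell types that are known to express Lgals3, were also higher in ONC retinas. Not every marker was. Aif1, a microglia marker, was at 0.743 RPKM in sham and 0.649 RPKM in ONC (log2 fold change -0.32). The mean levels of the macrophage markers Mrc1, Cd163 and Plac8, which did not pass the filter, were lower in ONC too. The 10 microglia markers summed to 25.0, 21.0 and 23.4 RPKM in sham replicates 1, 2 and 3 and to 31.7, 37.0 and 35.6 RPKM in ONC replicates 1, 2 and 3. Of the 10 microglia markers, 6 had an unadjusted p under 0.05 in edgeR, beside 16.7% of all genes, and 2 were differentially expressed. The edgeR adjusted p-values were 0.0903 for Itgam, an integrin subunit of myeloid cells, and 0.0912 for Cd68, a lysosomal protein of phagocytes. The 10 monocyte or macrophage markers summed to 17.5, 13.3 and 13.5 RPKM in sham and to 22.0, 30.0 and 22.4 RPKM in ONC. Only 4 of these 10 genes were kept, and Gpnmb (edgeR adjusted p = 0.0192) and Spp1 (edgeR adjusted p = 0.00772) were higher in ONC. Ccr2, the chemokine receptor that marks recruited monocytes, had 0 exon reads in all 6 samples. Of the 35485 genes listed, 13597 have an exon length of 0, and whether Ccr2 is among them was not examined. Its 0 reads therefore need not mean that it was not expressed. Each of the calls for Itgam, Cd68 and Gpnmb was lost when sham replicate 2 or sham replicate 3 was left out, with edgeR adjusted p-values up to 0.307, 0.304 and 0.128. The call for Cd68 was also lost without ONC replicate 2 or 3 (up to 0.414), and that for Itgam without any single ONC sample (up to 0.253). Spp1 kept an adjusted p under the limit throughout, but its log2 fold change dropped under the limit on the fold, to 0.55 without sham replicate 2 and to 0.50 without ONC replicate 2. On log2(RPKM + 0.1), limma called Cd68 and Tyrobp among the microglia markers and Lyz2, Gpnmb and Spp1 among the macrophage markers. The part of microglia and macrophages in the Lgals3 values was not tested.

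The sum of the 8 lens markers was 40.4, 6.54 and 8.94 RPKM in sham and 46.2, 40.6 and 53.1 RPKM in ONC. Of the 7 lens markers tested, 4 had an unadjusted p under 0.05 in edgeR, beside 16.7% of all genes. The median log2 fold change of the 7 was 1.27, with a range from 0.07 to 1.80. Only Cryaa, a crystallin, met the DEG criteria (edgeR adjusted p = 0.0469). That call was lost without sham replicate 2, sham replicate 3 or ONC replicate 3, with total gene reads (0.107) and in DESeq2 (0.415). DESeq2 called 1 lens marker, Bfsp1, and limma called 3, Cryaa, Cryba1 and Bfsp1. Sham replicate 1 had nearly the same lens marker level as ONC replicate 2. Its Lgals3 level, 0.681 RPKM, was the highest of the sham samples, beside 0.297 and 0.378 RPKM in replicates 2 and 3. It was below that of each ONC sample. The part of lens tissue in the Lgals3 values was not tested. Among markers of Müller glia, astrocytes, vascular cells and retinal pigment epithelium, edgeR called 0 of 8, 0 of 4, 0 of 7 and 0 of 7 genes, with 1, 1, 0 and 0 at an unadjusted p under 0.05 (16.7% of all genes tested), and DESeq2 and limma also called 0 in each. The sums of the Müller glia markers were 865 to 993 RPKM in sham and 947 to 992 RPKM in ONC, those of astrocyte markers 11.8 to 14.9 and 14.7 to 19.3, those of vascular markers 18.0 to 22.0 and 17.8 to 20.2, and those of retinal pigment epithelium markers 53.8 to 78.6 and 50.1 to 77.1. The part of these cell types in the Lgals3 values was not tested.

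**Figure D2:**
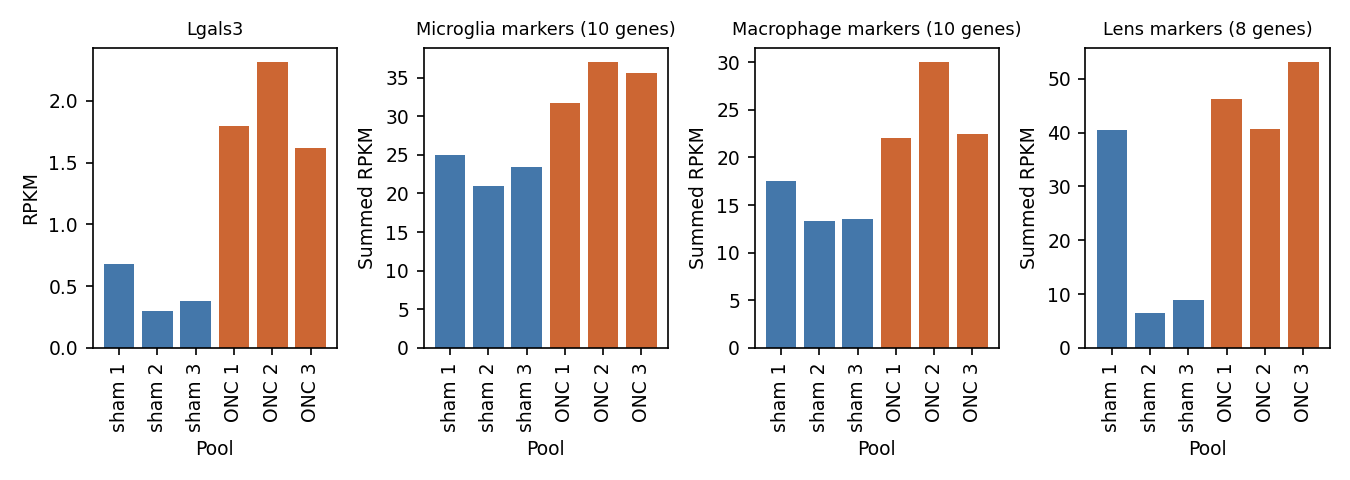
Lgals3 (RPKM) and the summed RPKM of the microglia, monocyte or macrophage, and lens marker lists, one bar for each sham (blue) and ONC (orange) sample, axes starting at 0. Lgals3, the microglia sum and the macrophage sum are higher in every ONC sample than in every sham sample, while the lens sum of sham replicate 1 (40.4 RPKM) lies beside that of ONC replicate 2 (40.6 RPKM).

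Lgals3bp, whose product binds galectin-3, lies at chr11:118392752-118401931 (GRCm38) with 6 exons and 2168 exon bases. Its level was 3.89, 5.33 and 3.71 RPKM in sham and 4.78, 5.52 and 4.66 RPKM in ONC. Sham replicate 2 was above ONC replicates 1 and 3, so that the groups overlapped. From 194 to 298 exon reads per sample, the log2 fold change was 0.09 (SE 0.15, 95% interval -0.23 to 0.40). Without sham replicate 2 it was 0.25, and without sham replicate 1 it was 0.00.

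Lgals1 lies at chr15:78926725-78930465 (GRCm38), with 4 exons and 800 exon bases. It was present at 11.7, 7.62 and 8.12 RPKM in sham and at 10.8, 14.1 and 11.1 RPKM in ONC. Sham replicate 1 was above ONC replicates 1 and 3, so that the groups overlapped through this sample alone. The log2 fold change was 0.27 (SE 0.17, 95% interval -0.09 to 0.63), from 146 to 281 exon reads per sample, and it was 0.46 without sham replicate 1 and 0.14 without sham replicate 2. Sham replicate 1 is also the sham sample with 40.4 RPKM of lens markers. The part of lens tissue in the Lgals1 values was not tested. The RefSeq annotation holds a further gene, Gm30368, that overlaps Lgals1, and since the strand setting of the counting is not given in the sources used here, reads of the pair cannot be told apart.

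Lgals4, best known as a galectin of the gut epithelium, lies at chr7:28833794-28841703 (GRCm38) with 10 exons and 1439 exon bases. Levels were 3.60, 3.92 and 3.10 RPKM in sham and 3.16, 5.64 and 3.83 RPKM in ONC, and the groups overlapped. ONC replicate 2 stood highest. The log2 fold change of 0.13 (SE 0.21, 95% interval -0.31 to 0.56) became -0.12 without ONC replicate 2, so its direction depended on that sample.

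Lgals8, the product of which recognises damaged endosomes and lysosomes, lies at chr13:12439415-12461738 (GRCm38) with 11 exons and 2980 exon bases. Its level was 11.2, 11.1 and 10.3 RPKM in sham and 11.7, 14.7 and 13.6 RPKM in ONC. Each ONC sample was above each sham sample, and this held after TMM scaling too, but the distance between the highest sham and the lowest ONC sample was small beside the spread within ONC. The log2 fold change was 0.17 (SE 0.09, 95% interval -0.01 to 0.35), a far smaller difference than that of Lgals3. It was 0.29 with the divisor of the RPKM values in place of TMM, against a median of 0.13 over all genes with that divisor. Exon reads numbered 770, 794 and 751 in sham and 883, 1093 and 1048 in ONC, whereas intron reads numbered 447, 393 and 370 in sham and 349, 400 and 430 in ONC. Thus the exon reads of the groups were apart and the intron reads overlapped. Introns held 34.3% of the gene's reads in sham and 28.1% in ONC, and with exon and intron reads counted together the log2 fold change was 0.08. Over all genes the share of reads on exons was also higher in ONC, as given above.

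**Figure D3:**
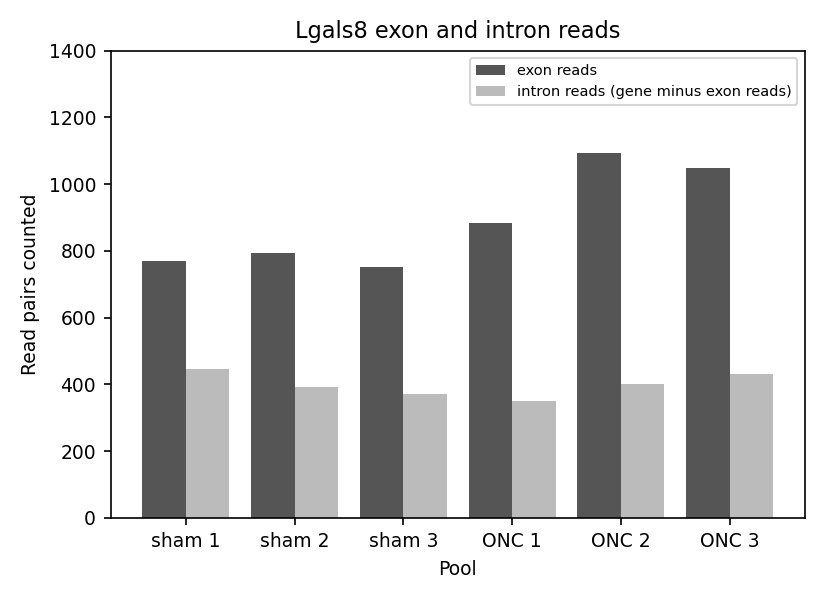
Read pairs counted on the exons (dark bars) and introns (light bars, gene reads minus exon reads) of Lgals8 in each sample, axis starting at 0. Exon reads range from 751 to 794 in sham and from 883 to 1093 in ONC, while intron reads overlap between the groups.

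Lgals9, a ligand of the immune receptor TIM-3, lies at chr11:78962979-78984924 (GRCm38) with 11 exons and 1586 exon bases. Levels of 1.62, 0.948 and 1.11 RPKM were measured in sham and of 0.872, 1.47 and 1.09 RPKM in ONC. The groups overlapped, and with 35 to 59 exon reads per sample the interval was wide. The log2 fold change was -0.22 (SE 0.34, 95% interval -0.94 to 0.50), and it lay between -0.42 without ONC replicate 2 and 0.00 without sham replicate 1. At this depth, a difference inside this interval could not be told from none.

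Differentially expressed genes (DEGs) were defined by an edgeR adjusted p under 0.1 with a fold change above 1.5. Across all genes, 113 of 13670 (0.827%) were higher in ONC by this definition and 114 (0.834%) were lower. Of the galectin genes 1 of 6, Lgals3, met it, and 5 did not. As the genes were chosen with this contrast known, nothing can be read from that share, and the call for Lgals3 is a description and not a test. Without the limit on the fold change, 325 genes (2.38%) were higher and 508 (3.72%) were lower, and Lgals3 was again the single galectin gene among them. Every ONC sample was above every sham sample for Lgals3 and Lgals8, 2 of the 6 genes, beside 1508 of all genes tested (11.0%). The median log2 fold change of the 6 genes was 0.15, beside 0.01 for all genes tested.

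**Figure D4:**
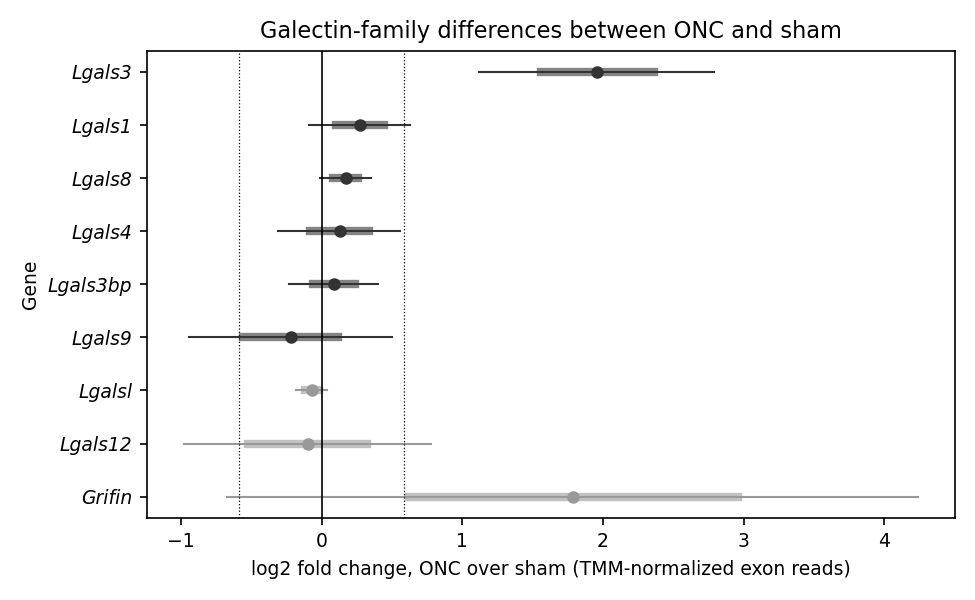
log2 fold change between ONC and sham (points) with its standard error (thick bars) and 95% interval (thin lines) for the 6 galectin genes (black) and 3 further family genes (grey), the dotted lines marking a fold change of 1.5. The intervals of all genes but Lgals3 include 0, and that of Grifin runs from -0.67 to 4.24. For the 6 galectin genes, chosen with this contrast known, the intervals are a description and not a test.

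Further genes of the galectin family were measured at widely different levels. Of 6 such genes listed, 5 had a row in the tables, 3 passed the filter, and edgeR, DESeq2 and limma called 0 of these 3, with 0 at an unadjusted p under 0.05. The most abundant was Lgalsl, the galectin-related protein, listed as 1110067D22Rik (chr11:20823355-20831108, GRCm38), with 86.5, 88.3 and 84.1 RPKM in sham and 86.0, 93.0 and 89.1 RPKM in ONC. The RPKM values of the 6 galectin genes summed to only 26.7 to 32.7 in the sham samples. Its log2 fold change was -0.07 (SE 0.05, edgeR adjusted p = 0.527), and its sign turned with the divisor of the RPKM values, which gave 0.05. Lgals12, a galectin of adipocytes, was near the filter at 0.376 ± 0.0341 RPKM in sham and 0.382 ± 0.0425 RPKM in ONC (SD, n = 3), with an edgeR adjusted p of 0.938. Grifin, a galectin-related protein of the lens fibre, had 3, 0 and 1 exon reads in sham and 9, 2 and 6 in ONC. It passed the filter only through the ONC group, its log2 fold change was 1.79 (SE 1.17, edgeR adjusted p = 0.472), and it is also one of the 8 lens markers, the sums of which differed between the groups as given above. Lgals2 had 0, 0 and 0 exon reads in sham and 4, 0 and 2 in ONC, and Lgals7 had a single read in ONC replicate 3, so neither could be compared.

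Galectins act through the glycoproteins that they bind. Of 20 such receptors and ligands, 17 were tested, and edgeR, DESeq2 and limma called 0. In edgeR, 3 of the 17 had an unadjusted p under 0.05, beside 2286 of all 13670 genes (16.7%). Their log2 fold changes ran from -0.43 to 0.60 with a median of 0.00. Lamp1, the major lysosomal membrane glycoprotein, was the most abundant at 81.7 RPKM in sham and 89.3 RPKM in ONC (log2 fold change 0.00, SE 0.06, edgeR adjusted p = 0.975). The lysosomal partner Lamp2 was at 16.2 and 18.9 RPKM, and the adhesion molecule Ncam1 at 36.7 and 35.0 RPKM. The remaining abundant genes of this list were Kdr, the VEGF receptor of endothelium, at 19.9 and 20.8 RPKM, Pdpn, a mucin-type glycoprotein, at 13.9 and 17.4 RPKM, and L1cam, an axonal adhesion molecule, at 10.9 and 11.9 RPKM in sham and ONC. Their edgeR adjusted p-values were between 0.259 and 0.984. Only Alcam, a cell adhesion molecule, had an edgeR adjusted p under the limit, 0.0871, with 3.15, 4.72 and 3.65 RPKM in sham and 3.09, 3.32 and 2.92 RPKM in ONC, and was named after its values were seen. Its log2 fold change was -0.43 (SE 0.13), short of the limit on the fold change. The adjusted p passed the limit in 7 of 17 alternatives and reached 0.409 without sham replicate 2.

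Within the cell, galectin-3, galectin-8 and galectin-9 are recruited to damaged endosomes and lysosomes, where autophagy and membrane repair follow. Of 10 genes of these responses, 9 were tested and edgeR and DESeq2 called 0, while limma on log2(RPKM + 0.1) called 1, Sqstm1, and 3 of the 9 had an unadjusted p under 0.05 in edgeR, beside 16.7% of all genes. Sqstm1 encodes the autophagy receptor p62, and it was at 85.8, 82.8 and 72.9 RPKM in sham and at 130.5, 133.8 and 124.5 RPKM in ONC. The groups were far apart beside the spread within them. The log2 fold change was 0.57 (SE 0.06, edgeR adjusted p = 2.73e-06), a 1.48-fold rise that lies just under the limit of 1.5, and it passed that limit in 7 of 17 alternatives. Atg16l1, which takes part in the lipidation of LC3, rose as well by the adjusted p (0.0654 in edgeR), from 18.0 ± 2.23 to 24.1 ± 3.83 RPKM (SD, n = 3), with a log2 fold change of 0.30, although ONC replicate 1 was below sham replicate 2. Its adjusted p was over the limit without any single sample other than ONC replicate 1, at most 0.301. The abundant genes Tax1bp1, Map1lc3b and Chmp4b were at 105, 75.1 and 70.1 RPKM in sham and at 122, 87.2 and 81.9 RPKM in ONC. Their log2 fold changes were 0.09, 0.09 and 0.10 (edgeR adjusted p = 0.49, 0.44 and 0.427). Becn1 was at 28.2 RPKM in sham and 31.5 RPKM in ONC (log2 fold change 0.03, edgeR adjusted p = 0.871). Calcoco2, which encodes the autophagy receptor NDP52, was listed at 0 exon reads in all samples, with the same limit as given for Ccr2. The median log2 fold change of the 9 genes was 0.09.

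The sugars that galectins bind are built and capped by glycosyltransferases. Of 22 such enzymes, 20 were tested, and edgeR, DESeq2 and limma called 0. In edgeR, 3 of the 20 had an unadjusted p under 0.05, beside 16.7% of all genes, and the median log2 fold change was 0.02. Mgat5, which adds the N-glycan branch that carries many galectin ligands, was at 9.56, 9.76 and 10.9 RPKM in sham and at 8.92, 6.24 and 8.74 RPKM in ONC. The groups did not overlap, and ONC replicate 2 was the lowest. The log2 fold change was -0.46 (SE 0.13, edgeR adjusted p = 0.052), short of the limit on the fold change, and its adjusted p passed in 12 of 17 alternatives but not without ONC replicate 2, sham replicate 2 or sham replicate 3, when it was at most 0.285. This gene, too, was named after its values were seen. Mgat3, which adds the bisecting sugar that blocks this branching, was also lower by the adjusted p (0.0643 in edgeR, log2 fold change -0.25, SE 0.07), at 11.0 ± 0.824 RPKM in sham and 10.0 ± 0.437 RPKM in ONC (SD, n = 3), and its adjusted p was under the limit in 8 of 17 alternatives. It was over the limit without any single sample other than ONC replicate 1, at most 0.244. Mgat1, the first enzyme of complex N-glycan synthesis and the most abundant here, was at 33.5 RPKM in sham and 37.0 RPKM in ONC (log2 fold change 0.02, edgeR adjusted p = 0.894). B4galt1, which adds galactose, was at 11.0 and 13.4 RPKM (log2 fold change 0.15, edgeR adjusted p = 0.333). The more abundant B4galt3, C1galt1c1 and St3gal1 were at 15.6, 17.3 and 17.1 RPKM in sham and at 18.5, 17.3 and 17.9 RPKM in ONC. Their log2 fold changes were 0.13, -0.12 and -0.06 (edgeR adjusted p = 0.471, 0.613 and 0.683).

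Likeness between genes was measured as Pearson's r of log2 CPM over the 6 samples, among 11975 genes whose mean RPKM exceeded 1 in ONC or in sham. Since all genes share the same 6 libraries, these values describe these samples and carry no test. The samples are 3 ONC and 3 sham, so r with Lgals3 also holds its difference between the groups. A high r therefore does not show that genes are regulated together. Lgals3 was most like Rbm22 (r = 0.996), a splicing factor, Tnfrsf12a (0.995), the receptor of TWEAK, Phgdh (0.995), the first enzyme of serine synthesis, Lyrm4 (0.993) and Hnrnpf (0.992), and 139 genes had an r above 0.95. Tnfrsf12a was at 5.57 RPKM in sham and 22.2 RPKM in ONC (log2 fold change 1.88), and Phgdh at 2.69 and 11.0 RPKM (log2 fold change 1.91), which are differences of the size seen for Lgals3. Those of Rbm22, Lyrm4 and Hnrnpf were far smaller (log2 fold changes 0.21, 0.35 and 0.17), so a high r does not mean a difference of like size. Lgals8 was most like Cdc42, Rrm1, Hsd3b7, Plekha1 and Slc27a1, with r from 0.984 to 0.994. Lgals1 was most like Cops3, Erp29, Omg, Cyfip1 and Zfp948 (0.986 to 0.992), Lgals3bp like Uxs1, Xlr3b, Glra3, Insig2 and Cbx3 (0.971 to 0.987), and Lgals4 like Mfap3, Eif1b, 1700025K23Rik, Uchl5 and Lmbr1l (0.967 to 0.976). Lgals3 and Lgals9 both had fewer than 100 exon reads in each sample. Lgals3 was included by name, so its r values rest on these few reads, and Lgals9 was left out of these lists. Among the galectin genes themselves, the closest pairs were Lgals1 with Lgals3 (r = 0.81), Lgals3 with Lgals8 (0.74) and Lgals4 with Lgals8 (0.72), and the lowest r was that of Lgals3bp with Lgals9 (-0.5).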

How the data were processed

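Retinal RNA of 3 ONC and 3 sham samples was sequenced. The authors mapped reads with CLC Genomics Workbench and deposited, per gene, counts of reads on exons and on whole genes (an intact pair as 1) and RPKM values. The deposited RPKM equals total exon reads divided by the exon length and by all reads on genes of the sample, introns included and on the usual RPKM scale, to within 0.0005. Deposited positions fit GRCm38, although the labels name mm9. The strand setting of the counting is not given in the sources used here. Groups were taken from the labels, and 0 columns of per-sample values were left unmapped. The authors' own fold changes and p-values were not used.

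For the 13670 genes whose mean RPKM exceeded 0.3 in ONC or in sham, total exon reads were compared with edgeR 4.0.16 in R 4.3.3 (TMM, glmQLFit, glmQLFTest, condition as the only term, Benjamini-Hochberg over all genes tested). The study tested RPKM values, whereas a count model was used here because counts were deposited. TMM factors were 0.98 to 1.02, and the fit was tested on simulated data. DESeq2 1.42.0 and limma 3.58.1 served as alternatives, with other scalings, filters, pseudocounts and counted reads, a replicate block and each sample left out, 17 in all. Tables were handled with Python 3.11.15, pandas 2.3.3 and numpy 2.4.6, and figures were drawn with matplotlib 3.10.9. Named were the 6 galectin genes, all listed further family genes, in the other lists each DEG and up to 6 genes of the highest mean RPKM, and the 5 genes most like Lgals3 and each other galectin gene with at least 100 reads in each sample. Exceptions are given beside the gene. The members and lists were chosen with earlier results of these data known. RefSeq promoters matched 5 of the 6 genes, Lgals1 being the exception.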

Additional observations from a re-analysis of the deposited data

How the results depend on the processing

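Over the 17 alternatives, 98 of the 102 log2 fold changes of the 6 galectin genes moved by less than the SD of log2 CPM within groups. Lgals4 was among the 98, although its sign turned without ONC replicate 2 (-0.12). Lgals3 met the DEG criteria in 17 of 17 alternatives, and each other galectin gene in 0. The alternatives reuse the 6 samples whose values were known when the genes were chosen. These counts therefore describe the processing and are no support for a difference. The 4 values that moved further were of Lgals3 and Lgals8. Lgals3, chosen with its values known, had a log2 fold change of 1.01 in limma on log2(RPKM + 1). Lgals8 had 0.29 with the RPKM divisor, 0.29 in limma with a pseudocount of 0.1 and 0.27 with 1. The total of 227 DEGs became 350 with the RPKM divisor and 349 with total gene reads, and 153 (without sham replicate 2) to 353 (without ONC replicate 1) with one sample left out. The 113 higher DEGs became 263 with the RPKM divisor (beside 87 lower) and 217 in limma with 0.1, and 71 to 175 with one sample left out. The 114 lower DEGs became 65 and 39 in limma with 0.1 and 1 (beside 217 and 126 higher), 236 with total gene reads, and 78 to 178 with one sample left out. Among genes of the lists, total gene reads called 1 binding glycoprotein (Cd44, -1.06), 1 glycan enzyme (Mgat5, -0.59) and 1 autophagy gene (Sqstm1, 0.60). Sqstm1 was also the 1 autophagy gene called with the RPKM divisor (0.69), in limma with 0.1 (0.69) and 1 (0.68) and with the sum of exon reads (0.59), and 0 to 1 were called with one sample left out. Leaving out one sample put 3 to 5 of the neighbours in the ONC order and 3 to 4 in the sham order apart. Over all genes tested, samples that share a replicate number did not deviate together (correlations -0.0474, -0.0333 and 0.00261). The highest correlation was that of sham replicate 1 with ONC replicate 2 (0.0658). These values cannot show whether samples of the same number shared a step that moved only few genes. With the replicate block 222 genes were called, Lgals3 among them (1.98), and the adjusted p of Cd68 became 0.163 and that of Alcam 0.102. Few reads limit Lgals3, Lgals9, Lgals12 and Grifin, and 3 pools a group limit the rest.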
